A study of Mus musculus with 22 samples.

Results

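The change of the SCA3 effect in blood between 9 and 17.5 months was measured for every gene of the blood count table. The genotype difference (SCA3 minus wild-type) at 9 months was subtracted from the genotype difference at 17.5 months, so that a positive change means that SCA3 moved up relative to wild-type between the ages. The members were all 22 blood samples of the series (22 of 22) and all 9850 genes of the table. Each age had 6 wild-type and 5 SCA3 samples.

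The SCA3 mice were male MJD84.2 mice that carried, on one chromosome set only, a transgene of the full human ATXN3 gene with an expanded CAG repeat under its own human promoter, expressed throughout the body. Their controls were male wild-type C57BL/6 mice without the transgene. None of the mice was treated, and all had done motor tests while ageing. Blood was taken from the tail at 39 to 42 weeks (9 months) and 74 to 77 weeks (17.5 months). The samples came from 15 mice, 7 wild-type and 8 SCA3. At both ages, 5 of the wild-type but only 2 of the SCA3 mice were sampled (replicates 14 and 15), so the 2 ages of SCA3 are mostly different animals. A replicate number stands for a mouse.

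SCA3 is an inherited ataxia. Its protein, ataxin-3, is a deubiquitinase: it trims ubiquitin chains, works with the segregase VCP in clearing misfolded proteins, and binds transcription regulators and DNA repair enzymes. Blood is a mixture of lymphocytes, myeloid cells, platelets and red cell precursors, and a level in whole blood depends on how many cells of each type are present as well as on each cell. In these bulk samples fewer cells of a type and less RNA per cell cannot be told apart.

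Poly(A) RNA was sequenced after globin depletion, and the deposited values were read counts per gene. Totals ran from 21898928 to 44390286 counts per sample. Levels below are log2 CPM (counts scaled to the library total) after correction for each gene's GC content in each sample, called log2 values, and differences are log2 differences from a fit over the 4 groups. Mouse Atxn3 was 0.16 ± 0.07 (SE) higher in SCA3 at 9 months and 0.03 ± 0.07 higher at 17.5 months, a change of -0.13 ± 0.10. The transgene is human, so mouse Atxn3 does not check the labels. Reads were mapped to the mouse genome only, and whether human ATXN3 reads were counted as Atxn3 was not tested. The difference in mean RIN, a score of RNA integrity given for all samples but 1 of SCA3 at 9 months, was -0.55 and -0.583. The lowest RIN values were 5.3 and 5.2, in SCA3 replicates 13 and 14 at 17.5 months, and all others were 6.1 to 7.9. The total count differed by 6150896 at 9 months and by -4612392 at 17.5 months, a change of -10763288 (two-sided exact permutation test over 336 assignments of genotype to mice, p = 0.0298). The GC content of the counted transcripts differed by -0.0756 percentage points at 9 months and -1.05 at 17.5 months, a change of -0.973 (exact permutation test, p = 0.0119). After adjustment over 5 such values the p-values were 0.0497 and 0.0298. The part of depth and GC content in the differences below was not tested beyond the corrections described. The libraries were numbered group by group, by genotype within each age. Neither age nor genotype, nor the change between them, can therefore be told apart from the handling of libraries.

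No gene passed the threshold for the change (an adjusted p under 0.05 in edgeR's quasi-likelihood test, adjusted by Benjamini-Hochberg across the table, 0.0% called). The smallest adjusted p was 0.211, shared by 247 genes. At an unadjusted p under 0.05 there were 1484 genes (15.1%), 536 with a positive change (5.44%) and 948 with a negative change (9.62%). All counts in the following paragraphs use this unadjusted threshold unless they say adjusted, and they describe the data without calling single genes. Tap1 was the last gene inside it (change -0.42) and Polr2j the first outside (change 0.33). DESeq2 without GC correction called 542 genes (5.5%). The quasi-likelihood test called 397 genes (4.03%) when SCA3 9-month replicate 9 was left out, 94 with a positive and 303 with a negative change, and 0 genes when any other single sample was left out. Of those 397 genes, 392 were among the 1484, and 43 were among the 51 (0.518%) called when correction for transcript length was added as well.

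The genes were sorted by the age at which the genotypes differed. At 9 months 662 genes (6.72%) and at 17.5 months 1684 genes (17.1%) differed at an unadjusted p under 0.05, and 0 (0.0%) and 4 (0.0406%) at an adjusted p under 0.05. The sorting covered only the 1484 genes that passed for the change. Among them, a difference was gained in 790 genes, which passed an unadjusted p of 0.05 at 17.5 months only, lost in 256, which passed at 9 months only, and reversed in 72, which passed at both ages with opposite signs. The other 366 of the 1484 passed at neither age, and 0 of the 1484 passed at both ages with the same sign. Gained differences were more often lower in SCA3 (509 genes, median -0.35 at 17.5 months) than higher (281 genes, median 0.50). Most reversals went from higher to lower (54 genes) rather than from lower to higher (18 genes). The median transcript length was 4521.5 bases in the former and 786.5 bases in the latter, against 3090 bases for all genes. Across all 9850 genes the differences at the 2 ages had a Pearson correlation of -0.10 and a Spearman correlation of -0.15. This is a description across genes, which share libraries and are not replicates, and 7 mice gave samples to both ages.

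**Figure D1:**
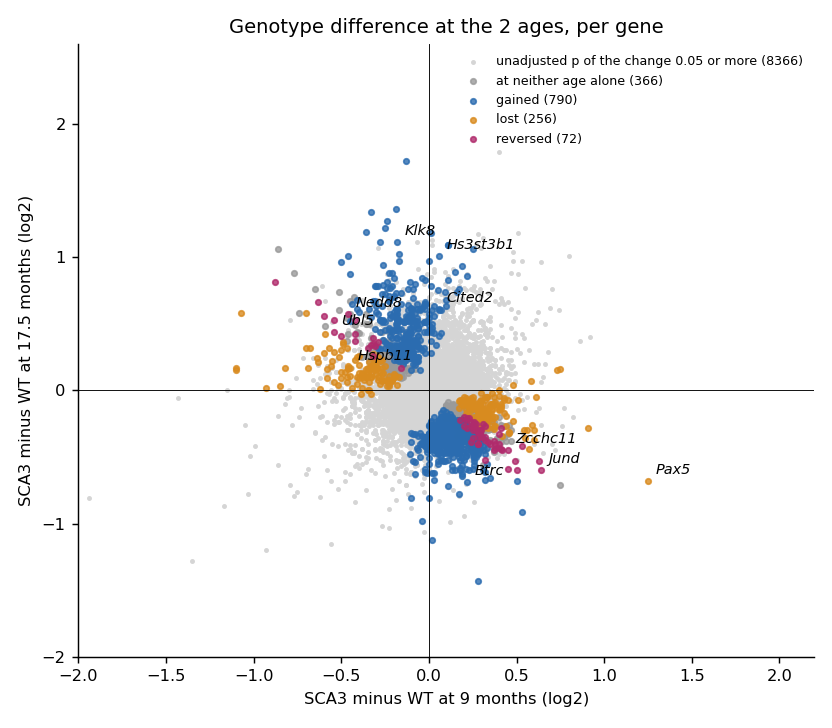
SCA3 minus WT at 9 months (x axis) against 17.5 months (y axis), both log2, for 9850 genes. Colours mark the 790 gained, 256 lost and 72 reversed genes among the 1484 with an unadjusted p under 0.05 for the change. The gained genes spread along the vertical axis and the reversed genes lie in the upper left and lower right.

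Genes that gained a higher level in SCA3 included 3 of the 4 genes called at 17.5 months, Cited2, Fam122a and Hs3st3b1. Those calls were sensitive to single samples: with 1 sample left out, 0 to 144 genes were called at 17.5 months, 144 without SCA3 replicate 8 and 22 without wild-type replicate 2, and 0 without any 1 of SCA3 replicates 11, 13 and 14 or wild-type replicates 1, 3, 5 and 6 of that age. With RIN as a covariate, which leaves out the sample without a RIN, 0 were called, and with a loess curve for GC content 1. Cited2, a transcriptional coregulator that binds CBP and p300, ranged from 4.74 to 5.13 (median 5.0) in wild-type and from 4.66 to 5.30 (median 4.96) in SCA3 at 9 months. At 17.5 months the ranges were 4.68 to 4.85 (median 4.82) and 5.26 to 5.58 (median 5.40). The SCA3 samples were interspersed with wild-type at 9 months and lay above all wild-type samples at 17.5 months. The difference was 0.06 at 9 months and 0.61 ± 0.10 (SE) at 17.5 months (adjusted p = 0.0217, edgeR), a change of 0.56 ± 0.14. The age difference in SCA3 passed the test (0.40, adjusted p = 0.0195, edgeR), as it did for 11.1% of all genes in SCA3 and 0.548% in wild-type, and was -0.16 in wild-type (adjusted p = 0.486). This fit took no account of the mouse. As 5 wild-type but only 2 SCA3 mice gave samples at both ages, the 2 shares are not on the same footing.

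Fam122a, which encodes an inhibitor of the phosphatase PP2A, had medians of 3.53 in wild-type and 3.64 in SCA3 at 9 months, and of 3.27 and 4.31 at 17.5 months. Its SCA3 samples at 17.5 months (3.90 to 4.39) lay above the wild-type samples (2.77 to 3.59). The change was 0.97 ± 0.24. Hs3st3b1, a heparan sulfate sulfotransferase, had a median of 3.48 in wild-type at 9 months and 2.82 at 17.5 months, while SCA3 stood at 3.64 and 3.71. Its fall with age in wild-type passed the test (-0.81, adjusted p = 0.0445, edgeR), and the age difference in SCA3 was 0.14. The change was 0.95 ± 0.26.

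Hcst, Klra7 and Klk8 were further genes of this kind. Hcst encodes DAP10, the signalling adaptor of the NK receptor NKG2D. Its values at 17.5 months were 4.86 to 5.39 in wild-type and 5.50 to 5.88 in SCA3, with no overlap, after 5.03 to 5.89 and 5.14 to 5.56 at 9 months. The change was 0.81 ± 0.19. Klra7, an NK cell receptor of the Ly49 family, had medians of 3.23 and 4.38 at 17.5 months and a change of 1.14 ± 0.28. The Ly49 genes are near-identical copies, so how reads were split among them is uncertain. Klk8, a secreted serine protease, was 3.74 to 5.04 in wild-type and 4.06 to 4.61 in SCA3 at 9 months. At 17.5 months it was 2.97 to 4.12 and 4.45 to 5.23, so the groups separated, with a change of 1.29 ± 0.31. Its reads cannot be told apart from those of the antisense gene 2310002F09Rik, since counting took no account of strand.

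Genes that gained a lower level in SCA3 were led by Btrc, the substrate receptor of the SCF ubiquitin ligase that marks IκB and beta-catenin for degradation. It ranged from 3.53 to 3.99 in wild-type and 3.65 to 4.15 in SCA3 at 9 months, and from 3.68 to 4.53 and 3.01 to 3.58 at 17.5 months. All 5 SCA3 samples of the later age lay below all wild-type samples. The fitted fall with age in SCA3 was -0.70 (adjusted p = 0.0124, edgeR) and the age difference in wild-type was 0.21, and the change was -0.91 ± 0.21. Strada, an activator of the kinase LKB1, was called as lower at 17.5 months (-0.98 ± 0.18, adjusted p = 0.0442, edgeR) with a change of -0.94. Its SCA3 replicate 8 stood at 4.99, inside the wild-type range, and the other 4 at 4.12 to 4.29.

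Pou2f2, the transcription factor Oct-2 of B cells, had age differences of opposite sign in wild-type (0.39, adjusted p = 0.176, edgeR) and SCA3 (-0.38, adjusted p = 0.0859), neither past the threshold. Wild-type medians were 4.38 and 4.82 at the 2 ages and SCA3 medians 4.54 and 4.34, with SCA3 below all wild-type samples at 17.5 months (4.16 to 4.50 against 4.69 to 5.04). The change was -0.77 ± 0.20. Prrc1, Arhgef7 (a guanine nucleotide exchange factor) and Nsun3 (a mitochondrial tRNA methyltransferase) had changes of -0.60 ± 0.15, -0.55 ± 0.13 and -0.91 ± 0.22. Of the 26 genes that the sorting named, 11 had groups without overlap at 17.5 months and 2 at 9 months. Over all genes these shares were 3.2% and 0.234%, and the rule that named the genes used the same values.

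The reversed genes included both ubiquitin-like proteins Nedd8 and Ubl5. Nedd8 is attached to cullins and switches on cullin-RING ubiquitin ligases. At 9 months its values were 7.07 to 7.55 in wild-type, and in SCA3 they were 6.67 to 6.87 in 4 samples and 7.37 in replicate 9. At 17.5 months they were 6.75 to 7.72 in wild-type, and in SCA3 7.89 to 8.07 in 4 samples and 7.37 in replicate 8. Apart from these 2 samples SCA3 lay below all wild-type samples at 9 months and above all of them at 17.5 months. The difference was -0.46 ± 0.16 and then 0.57 ± 0.16, a change of 1.02 ± 0.23. The rise with age in SCA3 passed the test (0.98, adjusted p = 0.00723, edgeR), with an age difference of -0.04 in wild-type. Ubl5, which acts in pre-mRNA splicing, had medians of 8.4 and 7.78 at 9 months and of 8.21 and 8.72 at 17.5 months, with overlap at both ages and a change of 0.98 ± 0.23. Reads of Ubl5 may include its antisense neighbour Fbxl12. Fcf1, a ribosome assembly factor, and Mien1 had changes of 0.65 ± 0.15 and 0.58 ± 0.14, and overlap the antisense genes Arel1 and Erbb2. With transcript length added to the correction their changes were 0.28 and 0.23.

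In the other direction, Zcchc11 (a terminal uridylyltransferase that tails small RNAs and histone mRNAs) went from SCA3 above wild-type to SCA3 below. SCA3 was at 6.30 to 6.87 in 4 samples and at 5.66 in replicate 9 at 9 months, against 5.59 to 6.34 in wild-type. At 17.5 months SCA3 was at 5.54 to 5.85, below all wild-type samples (5.94 to 6.33). The differences were 0.45 ± 0.15 and -0.45 ± 0.16, a change of -0.91 ± 0.22. Znhit2, Specc1l and 9130011E15Rik had changes of -0.63 ± 0.14, -0.72 ± 0.17 and -0.75 ± 0.18, each with opposite signs at the 2 ages. The last overlaps the antisense gene 4930505N22Rik. Jund, an AP-1 subunit that overlaps the antisense gene Gm11175, had the largest change of the 36 immediate early genes tested (-1.24 ± 0.31). Its SCA3 values were 6.33 to 7.96 at 9 months and 5.90 to 6.30 at 17.5 months, and the wild-type values 6.18 to 6.99 and 6.16 to 7.18. Other reversals of the same sign were the poly(ADP-ribose) polymerase Parp1 (-0.84 ± 0.24), the replication helicase subunit Mcm3 (-0.80 ± 0.23), the spliceosome core protein Prpf8 (-0.87 ± 0.27) and Nfkb1 (-0.63 ± 0.17).

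**Figure D2:**
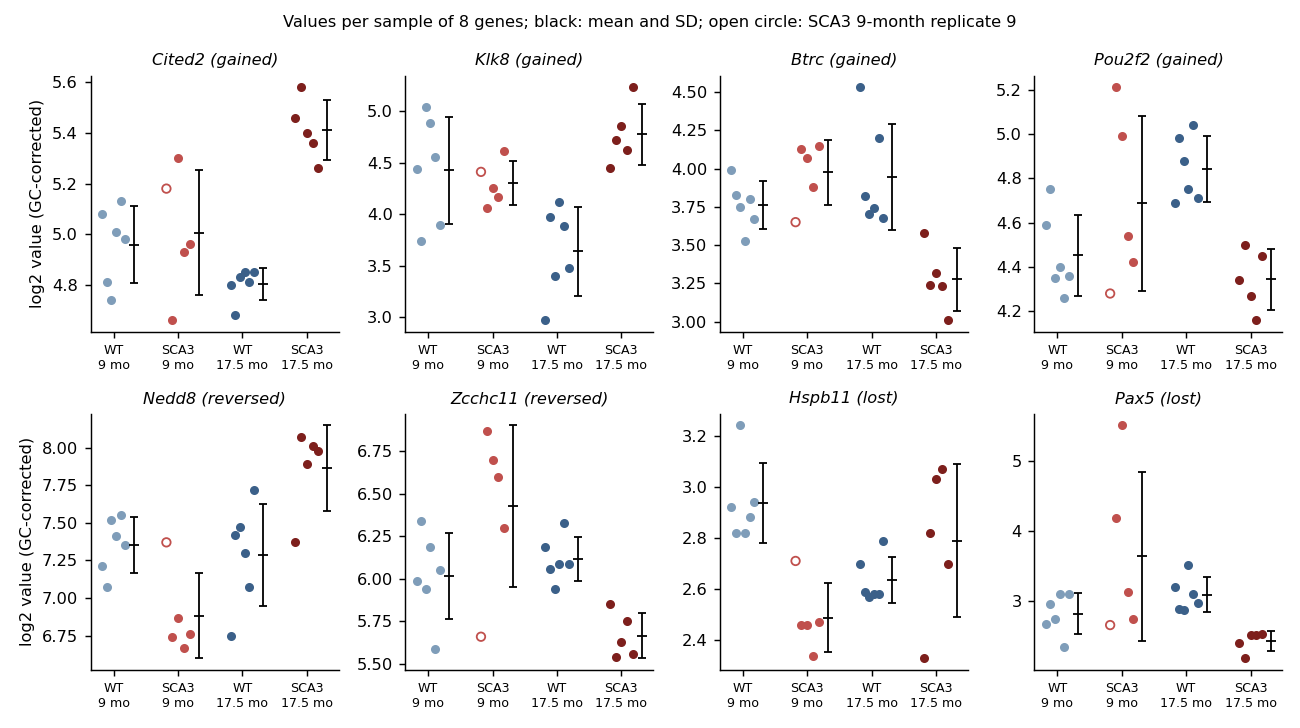
Log2 values (y axis, GC-corrected) of 8 genes in each sample of the 4 groups, with mean and SD in black and SCA3 9-month replicate 9 as an open circle. Cited2 and Klk8 separate upward and Btrc and Pou2f2 downward at 17.5 months, Nedd8 and Zcchc11 change sides, Hspb11 separates at 9 months only, and Pax5 has 2 high SCA3 samples at 9 months and SCA3 below wild-type at 17.5 months.

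Among the lost differences, Hspb11, a ciliary transport protein, had SCA3 values of 2.34 to 2.71 below all wild-type values of 2.82 to 3.24 at 9 months, and overlapped at 17.5 months (change 0.62 ± 0.17). Minos1, part of the complex that shapes mitochondrial cristae, and Emc2, of the ER membrane insertase, had changes of 0.80 ± 0.22 and 0.51 ± 0.14.

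Pax5, the defining transcription factor of B cells, had the most negative change of all genes (-1.93 ± 0.52), with 2 samples far above the rest. SCA3 replicates 10 and 12 stood at 4.18 and 5.50 at 9 months, the other 3 at 2.66 to 3.13, and wild-type at 2.35 to 3.10. At 17.5 months SCA3 (2.19 to 2.53) lay below wild-type (2.87 to 3.52). Without SCA3 replicate 12 the change was -1.16, and within mice sampled at both ages, by a fit with the mouse as a factor (replicate block), it was -0.66. Epb41l2, Dtwd1 and Myo1e were also higher at 9 months only, with changes of -0.63 ± 0.17, -0.53 ± 0.16 and -0.90 ± 0.27. Dtwd1 had SCA3 above all wild-type samples at 9 months (2.2 to 2.57 against 1.86 to 2.09).

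B cell genes had the lowest median change of the 37 gene lists, -0.47 against -0.03 for all genes. All 28 tested B cell genes had a negative change, and 9 of 28 passed the unadjusted threshold (0 in the positive direction), against the 9.62% above. The median difference was 0.17 at 9 months and -0.32 at 17.5 months. After Pax5 the members that passed were Spib (-0.74 ± 0.29), the IgM receptor Fcmr (-0.78 ± 0.31), Ralgps2, Bank1, the inhibitory receptor Cd22 (-0.87 ± 0.38), Fcer2a, the transcription factor Ebf1 (-0.72 ± 0.33) and Chst3. The mean log2 value of the list was 7.22 to 8.12 (median 7.40) in wild-type and 7.08 to 8.17 (median 7.82) in SCA3 at 9 months. At 17.5 months it was 7.53 to 8.42 (median 8.03) and 7.40 to 8.11 (median 7.74). The groups overlapped at both ages. The median age difference over the list was 0.57 in wild-type and 0.01 in SCA3. The lowest SCA3 sample at 9 months was replicate 9 (7.08), and without it 15 of 28 genes passed (15.2% of all genes with a negative change) and the median change was -0.61. The immunoglobulin genes Ighm, Ighd, Igkc and Iglc2 were not analysed here.

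Antigen presentation genes had changes of the same sign: 5 of 22 passed with a negative change and 0 with a positive change, with medians of 0.19 at 9 months, -0.27 at 17.5 months and -0.41 for the change. They included the peptide transporter subunit Tap2 (-0.47 ± 0.14), Ciita, the master regulator of MHC class II (-0.72 ± 0.28), and B2m, the light chain of MHC class I (-0.61 ± 0.27). The list mean was 8.00 to 8.87 in wild-type and 7.96 to 8.64 in SCA3 at 17.5 months. Among receptors of the TNF family, the B cell receptors Tnfrsf13b (TACI) and Cd40 had changes of -1.18 ± 0.37 and -0.47 ± 0.21. Of 29 monocyte genes, 3 passed with a negative change (Irf8, Cx3cr1 and Cybb), near the 9.62% of all genes, and 0 with a positive change.

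Oct-2 binds the octamer ATTTGCAT (or ATGCAAAT on the other strand). The 250 bases before the transcription start were searched for it on both strands in the RefSeq promoter sequences (GRCm38.p6). It was found for 2 of 21 B cell genes with a sequence (9.52%) and for 111 of all 7652 tested genes with a sequence (1.45%). The stretches that hold it, in capitals, follow 5′ to 3′ on the gene's strand.
Vpreb3, chr10:75948229-75948288, plus strand: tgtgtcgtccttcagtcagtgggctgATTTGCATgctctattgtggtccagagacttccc
Blnk, chr19:40994318-40994377, minus strand: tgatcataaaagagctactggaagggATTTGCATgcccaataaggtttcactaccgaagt
Vpreb3, of the surrogate light chain family, and Blnk, the adaptor of the B cell receptor, had changes of -0.39 ± 0.25 and -0.46 ± 0.27, and neither passed the unadjusted threshold. The match describes these letters and not a bound site. It is a property of the listed genes whatever their levels here, so it cannot bear on the change.

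NK and cytotoxic genes had the opposite pattern, with 8 of 30 passing with a positive change and 0 with a negative change, against 5.44% of all genes. Their medians were 0.04 at 9 months, 0.55 at 17.5 months and 0.53 for the change. All 8 were gained differences: Klra7, the activating receptor NKG2D (Klrk1, 0.86 ± 0.26), CD94 (Klrd1, 0.88 ± 0.27), Cd160 (0.66 ± 0.24), Klre1, the death ligand Fasl (0.67 ± 0.30), Samd3 and cystatin F (Cst7, 0.58 ± 0.27). With Hcst they include both chains of the NKG2D receptor complex. The list mean was 4.08 to 4.76 in wild-type and 3.98 to 4.61 in SCA3 at 9 months, and 3.77 to 4.76 and 4.38 to 5.03 at 17.5 months. The later groups overlapped in the stretch from 4.38 to 4.76. The median age difference was -0.06 in wild-type and 0.47 in SCA3. In SCA3, 6 of the 30 genes were called as higher at 17.5 months, at an adjusted p under 0.05. Over all genes 11.1% were called between the ages in SCA3, in either direction, and 0.548% in wild-type. For the change, the count without SCA3 9-month replicate 9 was 4 of 30 positive (8.65% of all genes) and 1 negative. Without SCA3 17.5-month replicate 8 it was 5 of 30 positive (6.31% of all genes), and for the neutrophil genes described next 2 of 23.

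T cell genes had a median change of 0.37, with 5 of 30 positive and 1 negative. The CD3 gamma and delta chains Cd3g (1.1 ± 0.31) and Cd3d (0.91 ± 0.28), the kinase Txk, Cd7 and the costimulator Cd28 were on the positive side and the small GTPase Rhoh on the negative side. The list mean went from a median of 6.15 to 5.6 in wild-type and from 5.85 to 5.66 in SCA3. Neutrophil genes had the highest median change, 0.72, and 5 of 23 passed, all positive: Stfa2l1, Pglyrp1 (0.65 ± 0.28), Wfdc21, lipocalin Lcn2 (1.47 ± 0.70) and Trem3. Their list mean varied widely at 9 months, from 5.69 to 7.78 in wild-type and from 5.98 to 7.95 in SCA3. At 17.5 months it was 6.05 to 6.81 and 6.69 to 7.83. The granule genes of immature neutrophils Camp, Ltf, Ngp, Mpo, Elane and Prtn3 were not analysed here. Within mice sampled at both ages (replicate block) the median change was -0.02 for neutrophil genes, with 0 positive and 1 negative, and 0.01 for T cell genes, with 4 positive and 2 negative. For NK genes it was 0.48, with 7 positive and 0 negative. For B cell genes it was -0.70 with 17 negative, and for antigen presentation -0.53 with 12 negative. That fit draws the change from 5 wild-type and 2 SCA3 mice, and 8.8% of all genes were positive and 10.9% negative in it. The median of the 32 red cell genes was 0.03 with 0 passing, and in the replicate block it was 1.16 with 14 passing.

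**Figure D3:**
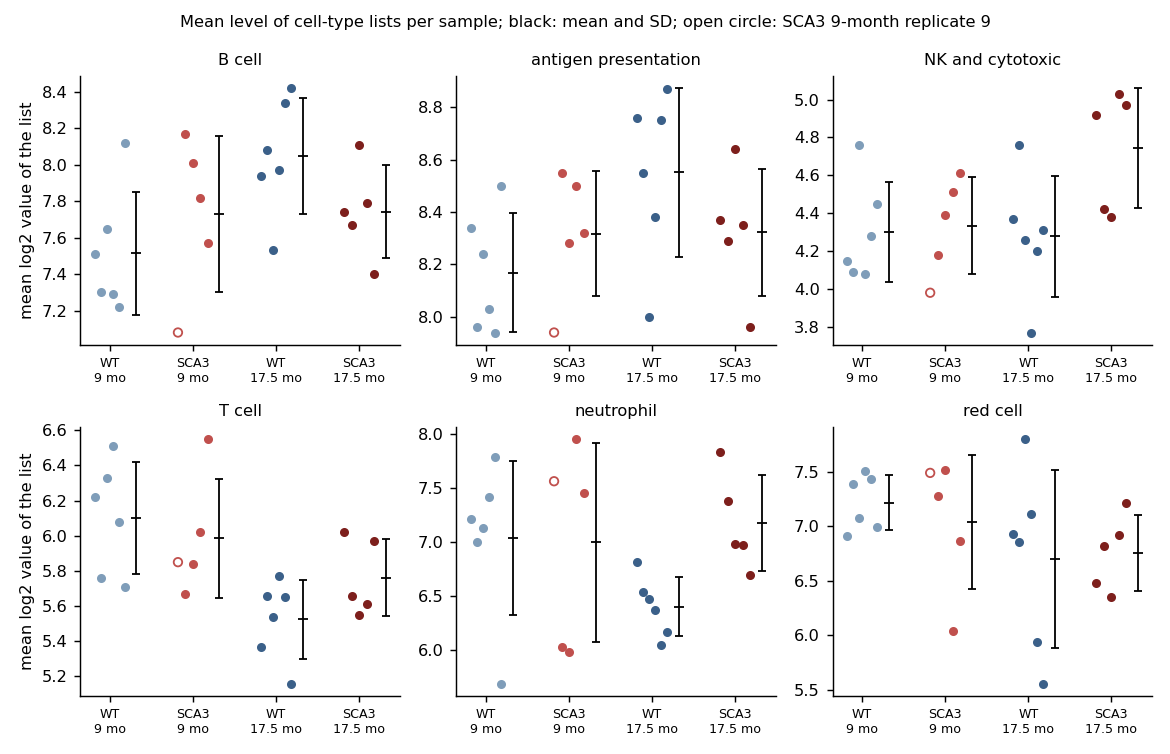
Mean log2 value (y axis) of 6 gene lists in each sample of the 4 groups, with mean and SD in black and SCA3 9-month replicate 9 as an open circle. B cell and antigen presentation levels are higher in wild-type at 17.5 than at 9 months with medians of 8.03 and 7.40 for B cells, and the median NK level is highest in SCA3 at 17.5 months (4.92).

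Lists of short genes, those of protein synthesis and the respiratory chain, had mostly positive changes. Over all genes 5.44% passed with a positive and 9.62% with a negative change. Cytosolic ribosomal protein genes had 17 of 75 with a positive change and 0 with a negative change, with medians of -0.15 at 9 months, 0.10 at 17.5 months and 0.29 for the change. Rps6 (0.54 ± 0.16), Rps12 (0.60 ± 0.19), Rpl13 (0.99 ± 0.36) and Rpl39 (0.99 ± 0.39) were among them. Ribosomal protein genes have many processed copies, and only reads with a single alignment were counted. Complex I of the respiratory chain had 7 of 35 positive and 0 negative (median 0.19), led by Ndufa5 (0.99 ± 0.28), Ndufa13 (0.63 ± 0.21) and Ndufa4 (0.60 ± 0.20). Complexes II to IV had 7 of 25 positive and 1 negative, with Cox7a2 reversed (-0.54 at 9 months, 0.53 at 17.5 months). ATP synthase had 5 of 16 positive and 1 negative, with Atp5j, which overlaps the antisense gene Gabpa, at 1.1 ± 0.30. The mitochondrial ribosome had 16 of 74 positive and 5 negative. The citric acid cycle, which feeds the chain, went the other way with 5 of 17 negative and 0 positive, among them Fh1 and Ogdh.

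The median transcript length was 937 bases for the cytosolic ribosome list and 983 bases for complex I, against 3090 bases for all genes. When the genes were divided into 10 equal groups by length, the median change ran from 0.26 in the shortest group (median 981 bases) to -0.17 in the longest (median 8036 bases). In the shortest group 221 genes passed with a positive and 14 with a negative change, and in the longest 14 and 168. Across 9805 genes with a length the Spearman correlation of length with the log2 difference was 0.38 at 9 months, -0.20 at 17.5 months and -0.36 for the change. Without GC correction it was 0.40, 0.08 and -0.10, so the sign at 17.5 months turned, and the median change ran from 0.18 in the shortest to -0.02 in the longest group. The lowering of short transcripts in SCA3 at 9 months was absent from replicate 9: the median deviation of the shortest minus the longest group was 0.16 there and -0.60 to -0.30 in the other 4. In wild-type it was -0.34 to 0.24 at 9 months and -0.08 to 0.22 at 17.5 months, and in SCA3 0.07 to 0.40 at 17.5 months.

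With length added to the correction, the medians of all 10 groups lay between -0.08 and -0.01, and 4.23% of all genes were positive and 8.72% negative. The cytosolic ribosome then had 5 genes positive and 4 negative (median 0.04), and complex I 2 positive and 4 negative (median -0.07). Nedd8 had a change of 0.70 in that fit and Hspb11 of 0.23. The medians of the B cell (-0.54), antigen presentation (-0.46), NK (0.37), neutrophil (0.57) and T cell lists (0.34) moved less. B cell genes then had 7 of 28 negative, antigen presentation 7 of 22 negative and T cell genes 4 of 30 positive. NK genes had 3 of 30 and neutrophil genes 2 of 23 positive, both fewer than with GC correction alone.

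**Figure D4:**
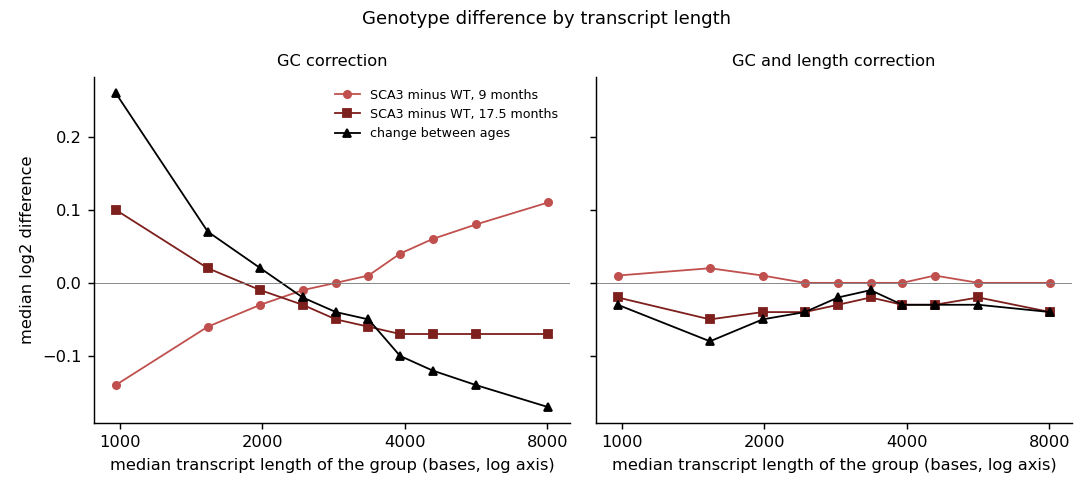
Median log2 difference (y axis) of 10 equal groups of the genes by transcript length (x axis, bases, log scale) with GC correction (left) and with GC and length correction (right). On the left the change runs from 0.26 in the shortest to -0.17 in the longest group, and on the right it stays between -0.08 and -0.01.

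In the ubiquitin system, genes whose products bind or work with ataxin-3 had 7 of 25 negative and 1 positive. Over all genes 9.62% were negative and 5.44% positive. The medians of this list were 0.10 at 9 months and -0.14 at 17.5 months. Vcp, the segregase, went from 0.36 to -0.29 (change -0.65 ± 0.27), and the histone acetyltransferase Crebbp from 0.48 to -0.23 (-0.71 ± 0.27). The ER ubiquitin ligase Syvn1, the chain elongation factor Ube4b, and the DNA end-joining partners Lig3 and Xrcc1 were also negative, and Kat2b was positive (0.49 ± 0.16). Deubiquitinases had 7 of 48 negative and 0 positive, led by Usp5 (-0.50 ± 0.13), which dismantles free ubiquitin chains, and Usp34 (-0.59 ± 0.18). The transcripts of Usp5 and Usp34 are 3213 and 12200 bases long. Of the 981 genes in the longest of the 10 length groups, 168 were negative. Without SCA3 9-month replicate 9 the deubiquitinase count was 14 of 48 negative (15.2% of all genes). Of these, 6 were called at an adjusted p under 0.05 (4.03% of all genes in either direction). The proteasome had 4 of 44 negative and 1 positive, with Psmd1 at -0.73 ± 0.21 and a list median of 0.00. With length added to the correction 12 proteasome genes were negative and 0 positive.

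Protein folding in the ER had 9 of 41 negative and 2 positive, against 9.62% and 5.44% of all genes. Negative members were the disulfide isomerases Pdia6 (-0.57 ± 0.14) and Pdia4 (-0.53 ± 0.19), the chaperones Hyou1 (-0.48 ± 0.14), Calr (-0.72 ± 0.22), Canx (-0.50 ± 0.19) and Hsp90b1 (-0.60 ± 0.28), and Ero1lb, Txndc11 and Syvn1. The 2 positive members, Ddit3 (0.53 ± 0.19) and Atf4 (0.44 ± 0.21), are stress-induced transcription factors. Pdia6 was 6.03 to 6.41 in wild-type and 6.09 to 6.50 in SCA3 at 9 months, and 6.49 to 6.97 and 6.00 to 6.38 at 17.5 months, when the groups did not overlap. Its rise with age in wild-type passed the test (0.48, adjusted p = 0.0276, edgeR), and the age difference in SCA3 was -0.08. Pdia6 overlaps the antisense gene Atp6v1c2. The B cell list had a change of the same sign, and its part in these values was not tested.

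The spliceosome had 12 of 54 negative and 3 positive, with Prpf19 (-0.59 ± 0.18) and 5 subunits of the SF3 complexes (Sf3a1, Sf3a2, Sf3b2, Sf3b3 and Sf3b5) on the negative side and the small Sm proteins Snrpd2 and Snrpe among the positive. DNA repair had 7 of 41 negative, among them Parp1, Lig1, Ddb1 and Prkdc, and 2 positive, the damage sensors Xpc (0.52 ± 0.17) and Xpa. Cell cycle genes had 5 of 21 negative and 0 positive, with 3 subunits of the MCM helicase (Mcm5, Mcm3 and Mcm4). Mitotic genes such as Top2a, Ccnb1 and Cdk1 were not analysed here. In cholesterol synthesis 4 of 26 were negative, including both regulators Srebf1 (-0.44 ± 0.13) and Srebf2 (-0.62 ± 0.21), and 1 was positive. The autophagy and lysosome list had 6 of 51 negative, with its regulator Tfeb (-0.54 ± 0.16), and 3 positive. Over all genes 9.62% were negative and 5.44% positive. The autophagy and lysosome counts were near these shares, and the negative counts of the other lists in this paragraph were above 9.62%.

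In the NF-kB and inflammation list the transcription factor subunits Nfkb1, Rel (-0.86 ± 0.29), Nfkb2 and Rela and the inhibitor Nfkbie were negative, and the IL-1 and IL-18 family genes Il18r1, Il18rap, Il1rn and Il1b (1.08 ± 0.51) were positive. Of 42 genes tested, 5 were negative and 4 positive, against 9.62% and 5.44% of all genes, with a median of -0.08. In TGF-beta signalling 4 of 31 were positive, among them Runx2, Tob1 and the inhibitor Smad7, and 1 was negative. The TNF superfamily had 4 of 21 positive, with the ligands Tnfsf14 (1.08 ± 0.33) and Fasl, and 2 negative. CREB signalling had 2 of 36 positive and 2 negative. Interferon response genes had 1 of 38 in each direction, with Ifi47 at 0.56 ± 0.18 on the positive side. The cytosolic chaperones had 2 of 36 positive and 4 negative, led by Bag1 (0.78 ± 0.27) and Hspa4 (-0.56 ± 0.19).

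The remaining lists had few genes past the threshold. Heme synthesis had 3 of 23 positive (Ppox, Tfrc and Slc40a1) and 1 negative, and platelet genes had 2 of 29 positive and 0 negative. Apoptosis genes had 1 of 29 in each direction (Pmaip1 positive, Fadd negative), as did immediate early genes with 1 of 36 (Sgk1 positive, Jund negative) and dendritic cell genes with 1 of 10 (Runx2 positive, Irf8 negative). Glycolysis had 2 of 13 negative (Pfkl and Pfkp) and 0 positive, and the circadian clock 2 of 16 negative (Csnk1d and Bhlhe40) and 0 positive. Glucocorticoid response had 1 of 14 positive (Sgk1) and 0 negative. Its list mean was 6.64 to 7.01 in wild-type and 6.65 to 7.28 in SCA3 at 9 months. At 17.5 months it was 6.2 to 6.49 and 6.54 to 6.93, without overlap. The DNA repair and citric acid cycle means did not overlap at 17.5 months either, with SCA3 lower. They were 4.08 to 4.21 against 4.22 to 4.38 in wild-type, and 5.6 to 5.81 against 5.82 to 6.02, so both gaps were very narrow. These separations were picked out of the 37 lists after their values were seen. Of single genes, 3.2% had groups without overlap at 17.5 months. Eosinophil and basophil genes had 0 of 11 in either direction: their medians were -0.77 at 9 months and -0.71 at 17.5 months. Their median change was 0.08, and -0.23 to 0.37 with 1 sample left out. The eosinophil and basophil list means of the genotypes overlapped at both ages.

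**Figure D5:**
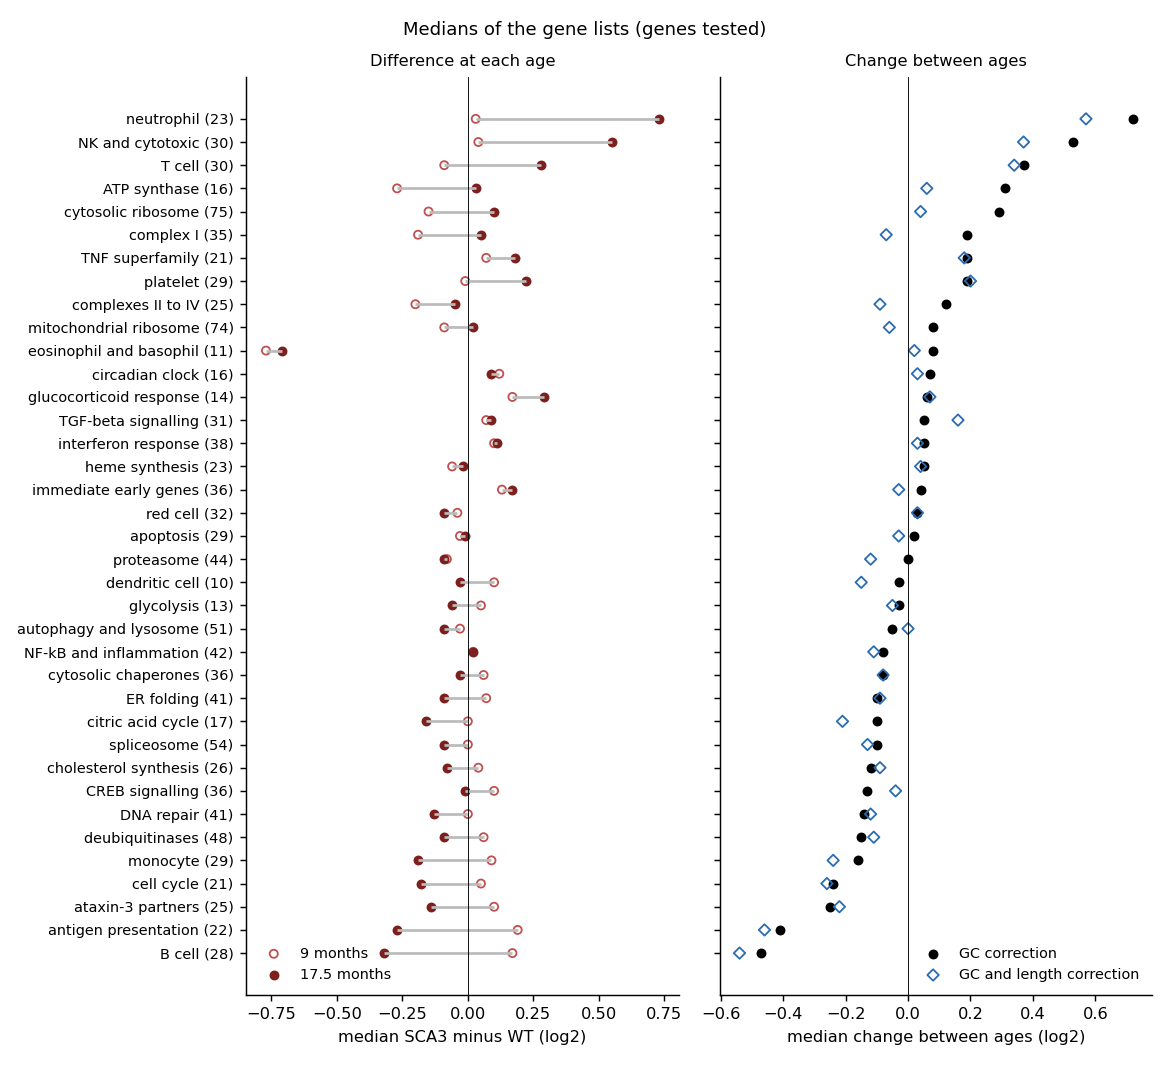
Left, median SCA3 minus WT difference (x axis, log2) of 37 gene lists (y axis, genes tested in brackets) at 9 months (open) and 17.5 months (filled). Right, median change with GC correction (black) and with GC and length correction (blue diamonds): B cell genes are lowest (-0.47) and neutrophil genes highest (0.72), and the ribosome and respiratory chain lists move to near 0 with length added.

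The study named 13 genes in blood at 17.5 months, chosen on these samples, so their counts are no independent evidence. Of these, 12 were gained differences here, and Phf13 did not pass for the change. At 9 months 0 of the 13 had groups without overlap (0.234% of all genes), and at 17.5 months 9 (3.2% of all genes). Phf13, a chromatin reader, was higher in SCA3 by 0.29 ± 0.12 at 9 months and 0.51 ± 0.12 at 17.5 months, so its change was 0.22 ± 0.17. Il18r1 went from -0.02 to 0.66 (change 0.67 ± 0.21), Reck, a protease inhibitor, from 0.25 to 1.06 (0.81 ± 0.32), and Smad7 from 0.07 to 0.60 (0.53 ± 0.20). On the lower side, Rhoh, Scrib and Atp13a2 had changes of -0.44 ± 0.15, -0.44 ± 0.15 and -0.36 ± 0.16. Lars2, a mitochondrial leucyl-tRNA synthetase, was 11.93 to 13.22 in SCA3 at 17.5 months, above all wild-type samples (10.68 to 11.76), with a change of 0.89 ± 0.44. Its SCA3 replicate 15 was already at 12.42 at 9 months, where the other 4 were at 10.73 to 10.94.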

How the data were processed

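Blood RNA was measured in 22 samples. Per the labels and the study's methods, the authors trimmed the reads, mapped them onto GRCm38 using STAR 2.3.0e and counted reads with a single alignment per gene, ignoring strand, using HTSeq 0.6.1. The deposited values are these whole-number counts, unnormalized, for 9850 genes averaging at least 4.07 CPM. No column was left out. Genotype, age and mouse came from the labels.

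GC content and length came from GENCODE M21 for 9805 genes. In each sample log2 counts were regressed on GC content (0.5 quantile, spline of 5 knots, quantreg 6.1, fitted on genes whose mean count reached 50) and quantile normalized, in place of the CQN package. The offsets entered edgeR 4.0.16 in a model of 4 group means, and each contrast was given a robust quasi-likelihood F test. SE is the log2 difference divided by the square root of F. The pipeline was tested on simulated counts. Single values used a two-sided exact permutation test that reassigned genotype among mice with the same sampling ages (336 assignments, smallest p 0.00298).

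The genes and the 37 lists were chosen with earlier results of these data known. Named genes were those of the study, the first 4 or 5 of each sorted class by p, and up to 3 members of each list with the lowest p. Strada and the other members that passed were named after their values were seen. Some genes that the rule names are not reported here. Mouse numbers pair samples: the deviations of the 2 samples of a mouse correlated by 0.339 on average in 5 wild-type and 0.0387 in 2 SCA3 mice. Alternatives were no GC correction, a loess curve, length correction, the likelihood ratio test, DESeq2 1.42.0, a filter of 10 counts, RIN as a covariate (leaving out the sample without a RIN), the mouse as a factor (replicate block), limma 3.58.1 voom with the correlation within a mouse (0.307), and leaving out each sample. Lists without SCA3 9-month replicate 9, alone or with length correction, were added after the data were seen. R 4.3.3 and Python 3.11.15 were used.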

Additional observations from a re-analysis of the deposited data

Results flagged for a closer look

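Over 136 groups of 5 or 6 values, 9 held a sample far from the rest by Dixon's criterion, where chance flags about 6.8, at 1 in 20. In SCA3 at 9 months replicate 9 was at 5.34 for Atxn3 (others 5.6 to 5.68) and at 7.37 for Nedd8 (others 6.67 to 6.87), and replicate 15 was at 12.42 for Lars2 (others 10.73 to 10.94). In SCA3 at 17.5 months replicate 8 was at 7.37 for Nedd8 (others 7.89 to 8.07) and at 4.99 for Strada (others 4.12 to 4.29). In wild-type, Cited2 was at 4.68 in replicate 2 at 17.5 months (others 4.80 to 4.85) and Hspb11 at 3.24 in replicate 4 at 9 months (others 2.82 to 2.94). At 9 months the neutrophil list mean was 5.69 in wild-type replicate 7 (others 7.00 to 7.78) and the cytosolic ribosome list mean 6.59 in wild-type replicate 3 (others 6.95 to 7.09).

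The genotype difference in GC content of the counted transcripts changed by -0.973 percentage points between the ages, and that in total count by -10763288, both by a test of the difference itself.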

How the results depend on the processing

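Genes called for the change numbered 542 with DESeq2 without GC correction, 51 with GC and length correction and SCA3 9-month replicate 9 left out, and 0 to 397 when each sample was left out (397 without SCA3 9-month replicate 9). All other settings gave 0, the replicate block included. Genes at an unadjusted p under 0.05 numbered 2383 without GC correction, 2561 with DESeq2, 1937 in the replicate block, which draws the change from mice sampled at both ages, and 1072 to 2346 with a sample left out. Gained genes numbered 1985 without GC correction, 2127 with DESeq2 and 528 to 1099 with a sample left out. Lost genes numbered 140 without GC correction, 166 with length correction, 148 with DESeq2, 520 with length correction and replicate 9 left out, and 114 to 784 with a sample left out (784 without SCA3 replicate 9, 524 without wild-type replicate 3, 114 without SCA3 replicate 10, 147 without SCA3 replicate 12, 143 and 122 without wild-type replicates 4 and 6, all at 9 months). Reversed genes numbered 43, 46 and 46 in the first 3 of these, 31 with RIN (1 sample without a RIN left out), 231 with length correction and replicate 9 left out, and 20 to 342 with a sample left out (342 without SCA3 replicate 9, 203 without wild-type replicate 3, and 20, 35, 45 and 33 without SCA3 replicates 10 and 12 and wild-type replicates 4 and 6 at 9 months, and 44, 47 and 46 without SCA3 replicates 11, 14 and 15 and 44 and 43 without wild-type replicates 1 and 6 at 17.5 months). Calls at 17.5 months numbered 2082 without GC correction, 1 with the loess curve, 146 with the likelihood ratio test, 2680 with DESeq2, 0 with RIN, 10 with voom and 0 to 144 with a sample left out (144 without SCA3 replicate 8, 22 without wild-type replicate 2, and 0 to 2 for the other samples that moved the count). At 9 months 1 gene was called with length correction and replicate 9 left out, and 0 to 0 with a sample left out. The change in GC content was -1.14 to -0.813 with a sample left out. Of 138 named genes, 6 changed sign under some setting. The causes were not tested.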
